A study of Xenopus tropicalis with 27 samples.

Results

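The genes described here build and supply the primary cilium, and they were read in the brains of Xenopus tropicalis tadpoles. They were picked by symbol alone, as every row of both count tables whose name belongs to a stated set of intraflagellar transport, Bardet-Biedl, transition zone and ciliary signalling genes. The rule found 48 genes, and it found the same 48 among the 16212 genes of the drug table and the 16049 genes of the time course table. No measured value entered the rule. The members comprised 13 subunits of intraflagellar transport complex B (IFT-B), 5 of complex A (IFT-A), 4 motor subunits, 9 genes of the BBSome and its helpers, 10 transition zone genes, 3 genes of membrane GTPases and a cargo adaptor, and 4 ciliary regulators of Hedgehog signalling. Other genes that the rule's name pattern covers, such as inpp5e, wdr19 and kif17, matched no row shared by both tables, so they were not analysed here.

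A primary cilium is a single antenna-like rod of microtubules that most neural progenitors and many neurons carry. Kinesin motors haul IFT-B trains and their cargo out to the tip, dynein hauls trains back with IFT-A, the BBSome lifts membrane proteins out, and the transition zone at the base acts as the gate. In vertebrates the Hedgehog pathway runs through this organelle: Smoothened enters it and Gli factors are processed there, so mutants in mouse transport genes often have a misshapen neural tube.

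Each group had 3 libraries of polyadenylated RNA from brain. Tadpoles of the drug table were exposed from stage 30 on to 10 µM beta-estradiol (an estrogen), to 5 µM cyclopamine (a plant alkaloid that blocks Smoothened) or to DMSO alone as the controls, and 3 brains were pooled per library at stage 46. Brains of untreated wildtype tadpoles were taken at stages 40, 42, 44, 45, 46 and 47, and the number of brains in each of those libraries is not given in the sources used here. The labels do not say that replicates came from separate clutches, so p-values measure the spread between these libraries, which may be partly technical.

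Depth was 17.6 to 28.5 M counts per drug library and 12.9 to 48.3 M per time course library. That puts 3 counts at 0.0621 to 0.232 CPM, here counts scaled to library size alone. All levels below are CPM scaled also by edgeR's TMM factors. Of the 11 brain markers measured, none was at 0 in any group. Their summed level was 7013 to 7431 CPM in DMSO libraries, 6104 to 7316 CPM with estradiol and 5339 to 6019 CPM with cyclopamine. Cyclopamine libraries also carried more RNA of other tissues: the summed level of 10 skeletal muscle markers was 99.9 to 185 CPM against 26.5 to 29.3 CPM in DMSO, and that of 10 epidermal markers was 662 to 1032 CPM against 374 to 450 CPM. The sum of 9 leukocyte markers was 102 to 133 CPM against 37.0 to 45.9 CPM in DMSO, and that of 8 retina and lens markers 10.3 to 33.6 CPM against 42.04 to 54.1 CPM. Estradiol libraries had 41.5 to 66.8 CPM for muscle (2 of 10 genes called higher) and 67.3 to 108 CPM for leukocytes (5 of 9 called higher), both above the DMSO range. They had 26.9 to 41.7 CPM for retina and lens, below it, and 417 to 594 CPM for epidermis, overlapping it. Estradiol replicate 3 stood apart from its group, with 1123 CPM summed over 17 cell cycle genes where replicates 1 and 2 had 564 and 444 CPM, DMSO libraries 345 to 419 CPM and cyclopamine libraries 178 to 185 CPM. In untreated libraries the muscle sum ran from 32.6 to 184 CPM at stage 42 and from 29.6 to 187 CPM at stage 44. It was 41.1 to 108 CPM at stage 40 and 29.3 to 56.8 CPM at stage 47. In whole-brain RNA, fewer cells of a type and less RNA per cell cannot be told apart.

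Between stage 40 and stage 47 most of these genes moved, but by little. Of the 48 members, 37 passed the test (edgeR quasi-likelihood test on all genes of the table, called at an adjusted p under 0.05), 14 higher and 23 lower at stage 47. The background was as high: 80.8% of all genes were called, 40% higher and 40.8% lower, so that the members' 77.1% is not a result about them. Their changes were small in size. The median absolute log2 fold change was 0.35 for members and 0.76 for all genes, and only 4 members were called with a change of at least 1 log2 unit, a rule that 38.3% of all genes passed. Taking the stage with the highest mean against the stage with the lowest, the median ratio was 1.40 for members, and 44 of 48 stayed under 2 (91.7%), against a median of 1.87 and 55.2% among 16032 genes above 0 at every stage. The 4 that went past a ratio of 2 were gpr161 (7.67), bbs12 (3.83), ift20 (2.07) and kif7 (2.05).

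**Figure D1:**
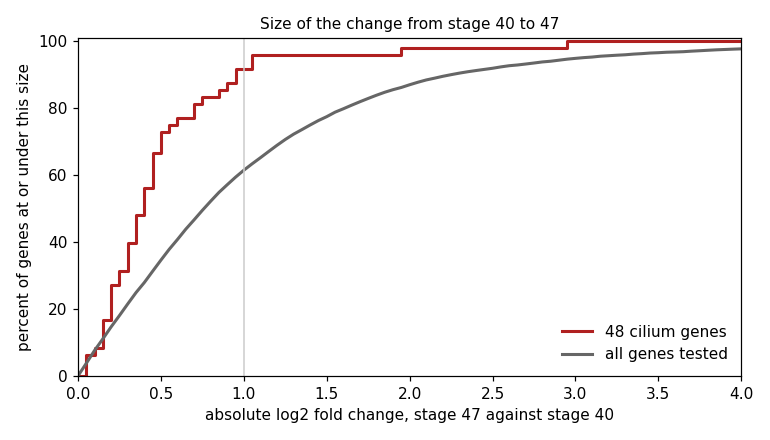
The x axis is the absolute log2 fold change between stage 47 and stage 40 and the y axis the percent of genes at or under that size, for the 48 cilium genes (red steps) and all genes tested (grey line). The red curve rises earlier, with medians of 0.35 and 0.76, and its last steps are bbs12 and gpr161.

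The ciliary regulators of Hedgehog signalling held the steepest course. Gpr161 is a receptor of the ciliary membrane that holds the pathway off in mouse, and it leaves the cilium when Hedgehog ligand arrives. Its level was 45.6, 41.5 and 39.4 CPM in the stage 40 libraries, 29.2, 32.7 and 32.3 CPM at stage 42, and 31.5, 34.6 and 31.9 CPM at stage 44. It was 30.2, 29.1 and 26.0 CPM at stage 45, then 16.1, 16.02 and 14.7 CPM at stage 46, and 5.62, 5.50 and 5.38 CPM at stage 47. The libraries of stages 40, 46 and 47 do not overlap with those of any other stage, while those of stages 42, 44 and 45 lie close together or overlap. From stage 40 to stage 47 the log2 fold change was -2.93 ± 0.09 (estimate ± SE, n = 3 libraries per stage, edgeR adjusted p = 2.4e-18). It came in 3 called steps: -0.42 ± 0.08 between stages 40 and 42 (edgeR adjusted p = 0.000107), -0.87 ± 0.08 between stages 45 and 46 (adjusted p = 2.63e-08) and -1.50 ± 0.10 between stages 46 and 47 (adjusted p = 1.39e-11). Over the same stages the level of 17 cell cycle genes was summed. The sum was 1765 to 1786 CPM at stage 40, 1727 to 1842 CPM at stage 42 and 1914 to 2117 CPM at stage 44. It was 1600 to 1656 CPM at stage 45, 923 to 1175 CPM at stage 46 and 179 to 193 CPM at stage 47. Its part in the course of gpr161 was not tested.

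Kif7 encodes a kinesin of the ciliary tip that organises the compartment where Gli factors gather. It measured 6.50, 7.62 and 6.36 CPM at stage 40 and 3.56, 3.22 and 3.20 CPM at stage 47, with no overlap between the stages (log2 fold change -1.03 ± 0.16, edgeR adjusted p = 4.17e-06). Evc and evc2 encode partner proteins at the base of the cilium that bind Smoothened, and in the RefSeq gene table (assembly UCB_Xtro_10.0) they are adjacent protein-coding genes, the only such pair among the members. Evc was at 26.8, 25.9 and 30.6 CPM at stage 40 and at 19.2, 17.7 and 19.5 CPM at stage 47 (-0.57 ± 0.09, edgeR adjusted p = 2.64e-06). Evc2 was at 9.61, 9.54 and 9.30 CPM at stage 40 and at 8.77, 10.4 and 7.28 CPM at stage 47. Its libraries overlap between the stages, and its log2 fold change of -0.10 ± 0.13 did not pass (edgeR adjusted p = 0.45).

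The membrane GTPases and the adaptor moved less. Tulp3, which couples IFT-A to membrane cargo such as Gpr161 in mammalian cells, was at 40.8, 41.5 and 43.7 CPM at stage 40 and at 24.3, 21.7 and 25.1 CPM at stage 47. All 3 late libraries lie below all 3 early ones (-0.83 ± 0.09). Arl13b, a GTPase of the ciliary membrane that activates Arl3, went from 41.1, 40.7 and 39.3 CPM to 35.5, 33.0 and 35.4 CPM (-0.22 ± 0.07, edgeR adjusted p = 0.00933). Arl3 releases lipid-modified cargo inside the cilium. Its level rose first, from 247, 223 and 203 CPM at stage 40 to 274, 307 and 308 CPM at stage 42 (0.40 ± 0.07, edgeR adjusted p = 3.8e-05), and was 192, 195 and 205 CPM at stage 47. Stages 40 and 47 overlap for arl3, although the difference of -0.18 ± 0.07 was called (edgeR adjusted p = 0.0167). All 3 genes were called lower, beside 40.8% of all genes. With a filter at 5 CPM or on the deposited normalized values, 1 of these 3 genes was called rather than 3.

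Among the 4 motors 3 were called higher and 1 lower, beside 40% and 40.8% of all genes. Kif3a and kif3b encode the partner chains of the kinesin that drives trains outwards, and they went opposite ways. Kif3b was at 97.5, 99.3 and 107 CPM at stage 40 and at 66.6, 60.1 and 61.3 CPM at stage 47. No library of stage 47 reached the stage 40 range (-0.70 ± 0.07, edgeR adjusted p = 7.75e-09). Kif3a was at 121, 133 and 135 CPM at stage 40, at 166, 179 and 199.6 CPM at stage 42, and at 154, 150.1 and 165 CPM at stage 47. Its increase over stage 40 was larger at stage 42 (0.49 log2 units) than at stage 47 (0.27 ± 0.06), and no library of either stage fell back into the stage 40 range. Kif3c, another chain of this kinesin family that is abundant in neurons, was at 232, 239 and 239 CPM at stage 40 and at 319, 335 and 281 CPM at stage 47 (0.40 ± 0.06). Dync2h1, the heavy chain of the dynein that returns trains to the base, was at 37.5, 50.1 and 47.5 CPM and at 60.0, 61.7 and 56.1 CPM (0.39 ± 0.08). The late libraries of both genes lie above the early ones.

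The IFT-B and IFT-A complexes did not move as blocks. Of the 13 IFT-B genes 9 fell and 2 rose, with a median log2 fold change of -0.31, and of the 5 IFT-A genes 3 rose and 1 fell, with a median of 0.27. Of all genes 40% were called higher and 40.8% lower, and their median was -0.01. The IFT-B falls numbered 8 on the deposited normalized values and 7 with a filter at 5 CPM. Over the same stages the brain markers went from 9541 to 10400 CPM summed to 5660 to 6007 CPM (7 of 11 lower, 4 higher), and the retina and lens markers from 88.3 to 100.6 CPM to 24.2 to 33.6 CPM (6 of 8 lower, 1 higher). Their part in the members' changes was not tested. Ift20, an IFT-B subunit that also sits at the Golgi and helps send membrane cargo to the cilium, had the largest fall among the IFT-B members. It was at 39.5, 31.6 and 32.5 CPM at stage 40 and at 15.03, 18.1 and 17.1 CPM at stage 47 (-1.04 ± 0.09, edgeR adjusted p = 4.11e-10). The ranges are far apart, and each stage mean lies below that of the stage before. Ift88, a core IFT-B subunit whose loss in mouse removes cilia, was at 52.5, 46.3 and 48.01 CPM at stage 40 and at 30.5, 33.8 and 28.8 CPM at stage 47 (-0.66 ± 0.08). Ift46 fell by 0.49 ± 0.06 log2 units, while ift52 and ift57 rose by 0.30 ± 0.09 and 0.36 ± 0.10.

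Ift43, an IFT-A subunit, was at 26.4, 24.4 and 24.7 CPM at stage 40 and at 39.9, 45.1 and 41.7 CPM at stage 47, well above all early libraries (0.75 ± 0.08, edgeR adjusted p = 1.46e-08). Ift122, of the IFT-A core, was at 22.7, 27.1 and 24.8 CPM and then at 36.1, 36.3 and 35.5 CPM, again without overlap (0.53 ± 0.07). Wdr35 rose by 0.27 ± 0.08, ttc21b fell by 0.28 ± 0.10 (a call lost with a filter at 5 CPM and on the deposited normalized values, which left no IFT-A gene lower), and ift140 did not pass (-0.11 ± 0.09).

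In the BBSome group 3 of 9 genes were called higher and 3 lower, beside 40% and 40.8% of all genes. The group's median log2 fold change was -0.0027, and it was between 0.02 and 0.04 under the other scalings. A call of a fall, that of bbs5, was lost with DESeq2, relative log expression factors, a filter at 5 CPM and the deposited normalized values, which left 2 lower. Its largest riser was bbs12, which encodes a chaperonin-like protein that helps assemble the BBSome and is no part of the finished complex. Bbs12 was at 2.22, 1.92 and 2.12 CPM at stage 40, at 4.84, 5.17 and 6.25 CPM at stage 46, and at 6.85, 8.14 and 8.99 CPM at stage 47. The 3 stages do not overlap, and the change of 1.93 ± 0.16 had an edgeR adjusted p of 6.8e-11. Bbs10, a second helper of this kind, rose by 0.42 ± 0.11. Among subunits of the complex itself bbs1 rose by 0.35 ± 0.08, bbs2, bbs5 and bbs9 fell by 0.41 ± 0.07, 0.17 ± 0.07 and 0.44 ± 0.11, and bbs4 and bbs7 did not pass. Arl6, the GTPase that recruits the BBSome to membranes, ended where it began (0.01 ± 0.09) after a peak at stage 45, where its mean was 28.0 CPM against 19.8 CPM at stage 40 and 19.9 CPM at stage 47.

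In the transition zone 3 of 10 genes were called higher and 3 lower, beside 40% and 40.8% of all genes. Rpgrip1l, a scaffold protein of the gate, was at 5.39, 5.31 and 4.84 CPM at stage 40 and at 8.86, 10.6 and 9.87 CPM at stage 47 (0.92 ± 0.13, edgeR adjusted p = 8.83e-07). Tctn1, of the Tectonic family of transition zone proteins, was at 18.1, 17.3 and 17.7 CPM and at 34.6, 33.2 and 29.7 CPM (0.88 ± 0.08, edgeR adjusted p = 4.81e-10). Both pairs of ranges are apart. The falls were those of b9d2, a subunit of the gate's B9 complex, of cc2d2a and of tctn3. B9d2 went from 10.7, 11.5 and 11.3 CPM to 5.99, 5.65 and 6.12 CPM (-0.91 ± 0.11), with the late libraries well below the early ones. Tctn2, b9d1 and mks1 did not pass.

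**Figure D2:**
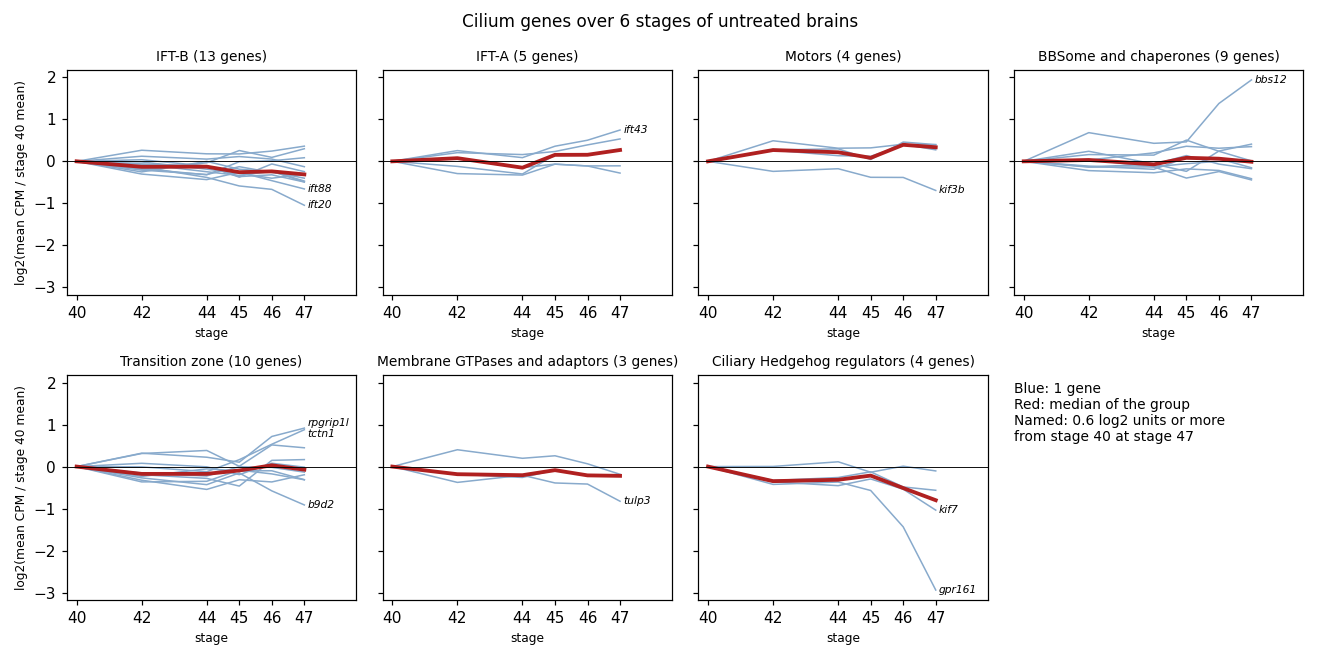
Each panel shows a functional group over 6 stages (x axis), as the log2 ratio of each gene's mean CPM to its mean at stage 40 (y axis). Blue lines are genes and the red line is the group's median, which at stage 47 lies at -0.31 for IFT-B, 0.27 for IFT-A, 0.33 for motors and -0.80 for the ciliary Hedgehog regulators.

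**Figure D3:**
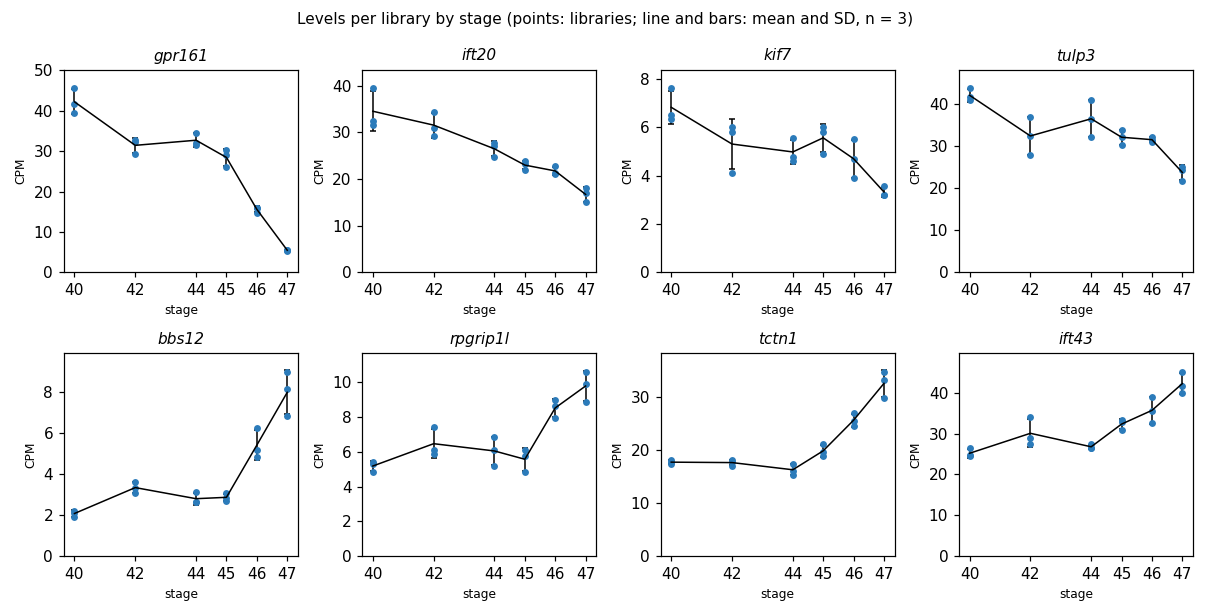
CPM (y axis, from 0) of 8 genes in each library over 6 stages (x axis); points are libraries, lines and bars the mean and SD of 3 libraries. The upper row falls and the lower row rises, and gpr161 drops from 15.6 CPM at stage 46 to 5.50 CPM at stage 47 on average.

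When all 6 stages were tested together, 42 of 48 members differed among stages (87.5%, against 88.4% of all genes). Among the 6 that did not pass were bbs4, evc2, ift81, mks1 and tctn3. Step by step, of 48 members, 20 were called between stages 40 and 42 (background 47%), 0 between stages 42 and 44 (background 2.32%, 8 members at an unadjusted p under 0.05, 17.5% of all genes), and 13 between stages 44 and 45 (background 22.8%). Between stages 45 and 46 there were 17 calls (background 42.1%), and between stages 46 and 47 again 17 (background 48.8%). In the last step 14 members were lower (25.8% of all genes) and 3 higher (23% of all genes), the 3 being bbs12, tctn1 and ift43. The highest stage mean fell at stage 40 for 21 members (32.5% of all genes) and at stage 47 for 12 (37.7%). The lowest fell at stage 47 for 19 (37.4% of all genes) and at stage 40 for 11 (31.6%).

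Other cilium genes were counted from lists made by role. Of 46 further genes of the cilium base, gate and transport machinery 12 rose and 20 fell between stages 40 and 47, with a median log2 fold change of -0.14. Genes of motile cilia, which the brain's ependymal and choroid plexus cells use to move fluid, gave 25 falls and 9 rises among 43, with a median of -0.98. Beside both lists, 40% of all genes were called higher and 40.8% lower, with a median of -0.01. The summed level of the motile cilia genes was 489 to 544 CPM at stage 40 and 346 to 379 CPM at stage 47. That of the 46 further genes was 1327 to 1394 CPM and 1294 to 1322 CPM. Some of the transport genes serve motile cilia too, and the part of motile cilia in the members' courses was not tested.

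The comparison of cyclopamine with DMSO asked what a block of Smoothened changes in the brain, and cilium genes make the organelle through which Smoothened acts. Of 7 Hedgehog target genes measured 6 fell, with a median log2 fold change of -1.69, and their summed level was 337 to 351 CPM in DMSO and 104 to 120.3 CPM with cyclopamine. Among the cilium genes 4 of 48 were called, all of them lower, where 19.6% of all genes were called and 9.59% were called lower. At an unadjusted p under 0.05 there were 13, or 27.1%, beside 36.6% of all genes. The members' median was -0.19 against -0.08 for all genes, and it was -0.12 against -0.01 with relative log expression size factors, a scaling under which 32.8% of all called genes were lower in place of 49.0%. The median of the members was below 0 under every scaling tried, and so was the median of all genes.

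The called genes were arl3, rpgrip1l, wdr35 and arl6. Arl3 was at 238, 242 and 240.5 CPM in DMSO and at 154, 185 and 162 CPM with cyclopamine. No cyclopamine library came near the DMSO range, and the log2 fold change was -0.52 ± 0.10 (edgeR adjusted p = 0.00618). Of 13 alternatives 12 called it, with adjusted p from 3.21e-05 to 0.0651, the last with cyclopamine replicate 1 alone in its group. Rpgrip1l was at 7.58, 8.40 and 7.02 CPM in DMSO and at 4.83, 4.87 and 5.27 CPM with cyclopamine, without overlap (-0.62 ± 0.16, edgeR adjusted p = 0.0238).

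Wdr35, an IFT-A subunit, was at 23.9, 23.7 and 21.5 CPM in DMSO and at 14.9, 19.3 and 16.7 CPM with cyclopamine (-0.44 ± 0.12, edgeR adjusted p = 0.0306). Arl6 was at 28.6, 27.4 and 25.8 CPM in DMSO and at 16.5, 23.8 and 20.5 CPM with cyclopamine (-0.43 ± 0.13, edgeR adjusted p = 0.0468). The groups do not overlap for either gene, but cyclopamine replicate 2 lay nearest to DMSO in both. Fewer alternatives kept these calls than that of arl3. Rpgrip1l was called by 6 of 13 (adjusted p 0.0122 to 0.234), wdr35 by 5 (0.0181 to 0.17) and arl6 by 2 (0.0203 to 0.236). Without cyclopamine replicate 1, without cyclopamine replicate 3, or without DMSO replicate 1 or 2, only arl3 was called. Without DMSO replicate 3 the calls were arl3 and rpgrip1l.

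The rest did not pass the test. Log2 fold changes were below 0 for 39 of 48 members (81.3%) and for 58.1% of all genes, and in 25 members all 3 cyclopamine libraries lay below all 3 DMSO libraries, which held for 30.2% of all genes. With relative log expression factors the count was 19 (23.6% of all genes), and on the deposited normalized values it was 22 (26.7%). In 1 member, the transition zone gene cc2d2a, all 3 lay above (19% of all genes), at 24.7, 27.0 and 23.3 CPM against 22.8, 21.9 and 23.1 CPM in DMSO (0.14 ± 0.11, edgeR adjusted p = 0.353). All 9 genes of the BBSome group, all 5 IFT-A genes and all 4 motors had a negative estimate, with medians of -0.27, -0.27 and -0.30. So did 11 of 13 IFT-B genes, with a median of -0.17. In that order the medians were -0.21, -0.21, -0.24 and -0.11 with relative log expression factors. With a filter at 5 CPM they were -0.17, -0.18, -0.21 and -0.07. The other groups were more mixed. Negative estimates numbered 6 of 10 in the transition zone (median -0.10) and 2 of 4 among the Hedgehog regulators (median -0.03). Among the membrane GTPases and the adaptor they numbered 2 of 3 (median -0.19). The brain markers and the retina and lens markers given above were lower in the same libraries (4 of 11 and 2 of 8 called lower), and the muscle, epidermal and leukocyte markers higher (8 of 10, 4 of 10 and 9 of 9 called higher). Their part in these shifts was not tested.

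None of the motors was called, though their libraries were apart. Kif3a was at 156, 155 and 142 CPM in DMSO and at 110.1, 127 and 107 CPM with cyclopamine. The log2 fold change was -0.39 ± 0.14 (edgeR adjusted p = 0.0672), and the call was made under 2 of 13 alternatives. Kif3b was at 57.7, 57.5 and 56.0 CPM in DMSO and at 44.0, 48.7 and 44.6 CPM with cyclopamine, kif3c at 269, 273 and 264 CPM and at 189.6, 249 and 219.7 CPM, and dync2h1 at 61.9, 54.0 and 51.5 CPM and at 46.9, 45.3 and 45.8 CPM. No cyclopamine library of these genes reached the DMSO range. When the fit held only the 6 libraries of the comparison, kif3a, kif3b and the IFT-A gene ttc21b were called along with arl3, rpgrip1l and wdr35.

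Among the 13 IFT-B members, none of which was called with cyclopamine, ift88 came closest, and it is named after its values were seen. It was at 44.1, 40.7 and 43.4 CPM in DMSO, at 34.8, 35.5 and 35.2 CPM with cyclopamine and at 35.4, 40.7 and 40.9 CPM with estradiol. The cyclopamine libraries lie within 1 CPM of each other and below all DMSO libraries, and the log2 fold change against DMSO was -0.28 ± 0.09 (edgeR adjusted p = 0.0534). The estradiol libraries reached into the DMSO range (-0.13 ± 0.09, edgeR adjusted p = 0.416). Among BBSome subunits bbs7 and bbs2, with -0.29 ± 0.10 and -0.33 ± 0.12 against DMSO, missed the threshold in the same way (edgeR adjusted p = 0.0564 and 0.0661).

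The ciliary regulators of Hedgehog signalling showed no called change with cyclopamine. Gpr161 was at 9.58, 9.48 and 9.38 CPM in DMSO and at 8.74, 6.89 and 7.54 CPM with cyclopamine. All 3 cyclopamine libraries lie below DMSO, and the log2 fold change was -0.29 ± 0.27 (edgeR adjusted p = 0.447). Kif7 was at 4.66, 2.91 and 3.46 CPM and at 3.52, 2.66 and 4.27 CPM, with full overlap. Evc (27.7, 26.5 and 29.5 CPM in DMSO, 32.4, 24.1 and 28.8 CPM with cyclopamine) overlapped too, and its estimate of 0.03 ± 0.19 changed sign without single libraries. Evc2 was at 7.12, 6.97 and 8.93 CPM and at 11.8, 7.68 and 10.2 CPM (0.36 ± 0.26, edgeR adjusted p = 0.322), the highest estimate among the members. Of the remaining adaptor genes, tulp3 was at 25.4, 24.8 and 26.1 CPM and at 23.9, 20.2 and 22.8 CPM (-0.19 ± 0.19), and arl13b was at 45.2, 44.1 and 37.0 CPM and at 43.4, 42.7 and 41.0 CPM (0.01 ± 0.13). Neither passed.

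**Figure D4:**
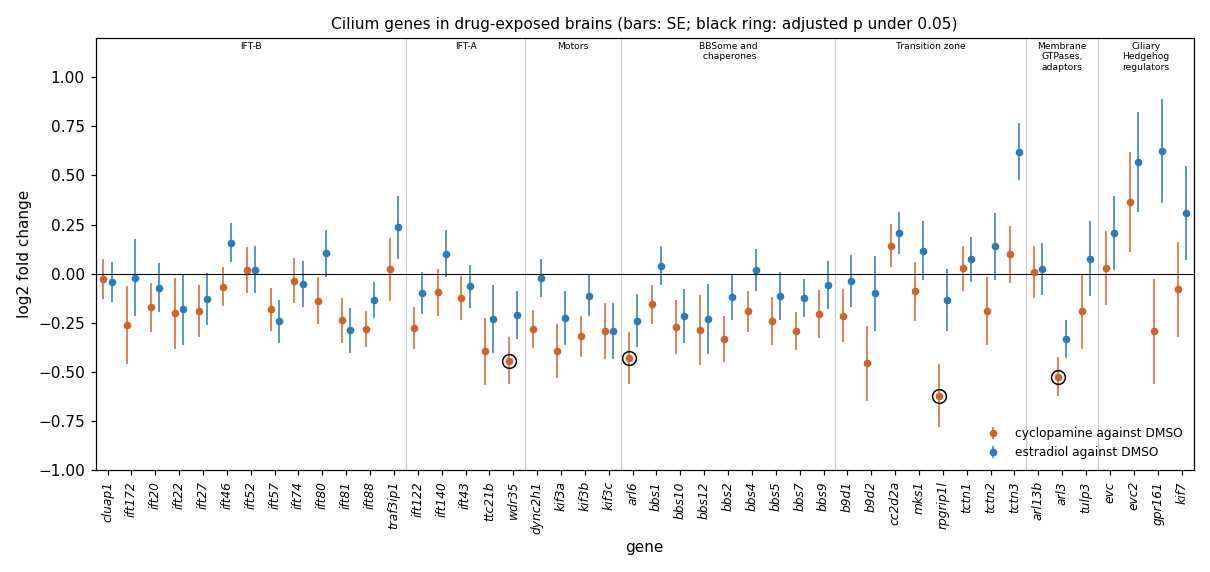
Log2 fold change against DMSO (y axis) of 46 of the 48 genes (x axis, by functional group) with cyclopamine (orange) and with estradiol (blue). Bars are the SE derived from the edgeR F statistic, and a black ring marks an adjusted p under 0.05. The 4 ringed points are wdr35, arl6, rpgrip1l and arl3 with cyclopamine. The 2 sets of points share the DMSO libraries.

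**Figure D5:**
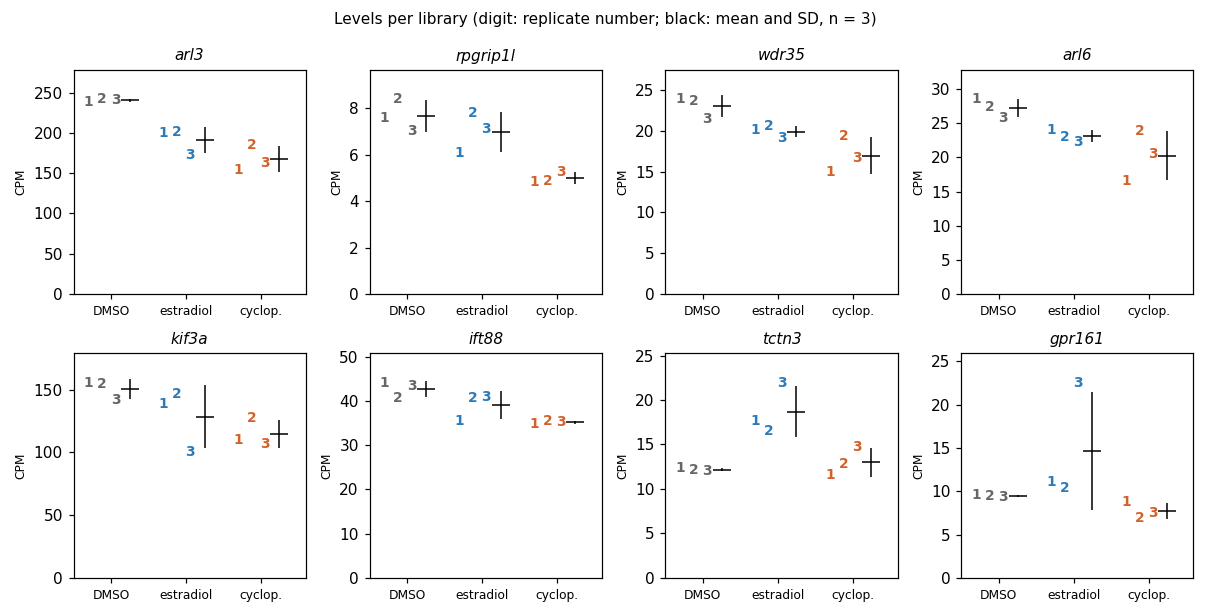
CPM (y axis, from 0) of 8 genes in the 3 groups of the drug table (x axis, cyclop. for cyclopamine); digits are libraries by replicate number, black marks the mean and SD of 3 libraries. Arl3 is at 240 CPM on average in DMSO and 167 CPM with cyclopamine, and estradiol replicate 3 stands alone at 22.5 CPM for gpr161.

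Further cilium genes outside the rule gave 1 call up and 6 down among 46 with cyclopamine, with a median of -0.15. Of all genes 19.6% were called and 9.59% called lower. The calls with the lowest p were rp2, ttc30a, csnk1d and hspb11, all lower. Of these transport machinery genes, ttc30a had -0.54 ± 0.12 (edgeR adjusted p = 0.0144) and hspb11 -0.59 ± 0.15 (edgeR adjusted p = 0.0226). Genes of motile cilia gave 1 call each way among 42, with a median of -0.08, and their summed level was 413 to 449 CPM in DMSO and 358 to 425 CPM with cyclopamine. Of 8 transcription factors that turn on ciliary genes 1 rose and 1 fell. The fall, that of rfx3 (-0.65 ± 0.18, edgeR adjusted p = 0.0325), is the same as the fall counted among the motile cilia genes.

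Brains exposed to estradiol were compared with DMSO brains for the effect of an estrogen. None of the 48 cilium genes was called (0 by edgeR, where 2.07% of all genes were, with 5 members and 22.3% of all genes at an unadjusted p under 0.05). DESeq2 called 2, arl3 and tctn3, and edgeR without estradiol replicate 2 called 2, tctn3 and ttc21b. The members' median log2 fold change was -0.05, beside 0.01 for all genes, and it turned to 0.01 with a filter at 5 CPM. All 3 estradiol libraries lay below all 3 DMSO libraries in 6 members (13.1% of all genes) and above them in 3 (13.8% of all genes). The 3 were tctn3, gpr161 and cc2d2a.

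Tctn3, a Tectonic of the transition zone, was at 12.3, 12.1 and 11.99 CPM in DMSO and at 17.7, 16.5 and 21.9 CPM with estradiol. Each estradiol library lay well above the tight DMSO range, and the log2 fold change of 0.62 ± 0.15 missed the threshold (edgeR adjusted p = 0.0565, 0.00506 to 0.205 over 12 alternatives). With cyclopamine it was at 11.5, 12.8 and 14.8 CPM, overlapping DMSO. Arl3 was at 199.5, 201 and 173 CPM with estradiol, below all DMSO libraries, and its log2 fold change of -0.33 ± 0.10 did not pass (edgeR adjusted p = 0.0985).

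Gpr161 was at 11.1, 10.4 and 22.5 CPM with estradiol, against 9.38 to 9.58 CPM in DMSO. All 3 estradiol libraries lie above DMSO, replicates 1 and 2 narrowly and replicate 3 by far. The log2 fold change was 0.63 ± 0.26 (edgeR adjusted p = 0.196), and it was 0.21 without replicate 3. The other regulators and tulp3 also had their highest estradiol value in that library. Evc2 was at 8.85, 9.08 and 16.3 CPM (0.57 ± 0.26, edgeR adjusted p = 0.22, and 0.26 without replicate 3), evc at 24.6, 29.1 and 42.8 CPM (0.21 ± 0.19), and tulp3 at 19.5, 24.8 and 36.3 CPM (0.08 ± 0.19). The last 2 estimates changed sign without replicate 3. Of all 48 members, 14 had their highest level among the 9 drug-table libraries in estradiol replicate 3, which was so for 21.5% of all genes. This is the library with the high cell cycle sum given above, and the part of that sum in these values was not tested.

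No motor passed the test with estradiol. Kif3a was at 139, 147 and 100 CPM with estradiol, kif3b at 45.5, 55.2 and 57.8 CPM, kif3c at 209.8, 266 and 182 CPM, and dync2h1 at 51.0, 57.1 and 56.9 CPM. For kif3a and kif3c, replicate 3 is the lowest of the 3 libraries, the reverse of gpr161. Kif7 (4.43, 4.51 and 4.76 CPM) and arl13b (52.1, 38.1 and 38.4 CPM) overlapped the DMSO libraries.

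Set directly against cyclopamine, estradiol gave no called member (0 by edgeR, where 6.77% of all genes were called, with 5 members and 22.8% of all genes at an unadjusted p under 0.05). DESeq2 called 2, gpr161 and tctn3. Estimates were higher with estradiol for 43 of 48 members (89.6%) and for 56.3% of all genes. The median log2 fold change was 0.18, beside 0.04 for all genes, and with relative log expression factors it was 0.12, beside -0.02. All 3 estradiol libraries lay above all 3 cyclopamine libraries in 13 members (15.3% of all genes) and below in 0 (9.34% of all genes). With relative log expression factors the counts were 6 above (10.9% of all genes) and 1 below (12%). On the deposited normalized values they were 10 above (13% of all genes) and 1 below (10.4%). The largest differences were those of gpr161 (0.92 ± 0.27, edgeR adjusted p = 0.066) and tctn3 (0.52 ± 0.14, edgeR adjusted p = 0.0585), and the lowest were those of ift57 and ift81. Without estradiol replicate 3 the difference of gpr161 was 0.44. Ift57 was at 20.04, 20.3 and 18.3 CPM with estradiol and at 20.5, 19.8 and 20.9 CPM with cyclopamine, and ift81 at 20.9, 19.6 and 19.5 CPM and at 17.9, 23.0 and 21.2 CPM, so both overlap. With 3 libraries per group and the spread seen with estradiol, a p that misses the threshold does not show that the drugs act alike on these genes.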

How the data were processed

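Raw counts of reads per gene were deposited as 2 tables, of 9 drug libraries and 18 time course libraries, each with normalized values. STAR 2.7.3 is named in the submitters' processing notes. Build, annotation, read counter and strand setting: not given in the sources used here. The library preparation was stranded, per the labels' protocols. The deposited normalized values are on a log2 scale after full-quantile normalization, per the labels and the values. Rows of low genes were already gone: in both tables every gene has 3 or more libraries at 1 CPM or above. Groups came from the labels.

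The tables were fitted apart, in edgeR 4.0.16 (R 4.3.3) on the deposited counts: TMM factors, filterByExpr (which removed no gene), group means without covariates, the robust quasi-likelihood F-test and Benjamini-Hochberg adjustment over all genes, called at an adjusted p under 0.05. No level was compared across the tables. Levels are CPM scaled by the TMM factors, and depend on transcript length, so they were not compared between genes. Alternatives were relative log expression factors, a mean of at least 5 CPM, no filter (identical here, so not counted among alternatives), DESeq2 1.42.0, limma 3.58.1 on the deposited log2 values, a replicate block, only the 6 libraries of a comparison, leaving out each library, and cyclopamine replicate 1 alone, which has the lowest epidermal sum of its group (662 CPM beside 674 and 1032) but the highest muscle and leukocyte sums. Scalings of the non-overlap counts were added after seeing the data.

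Members and lists were chosen with earlier results of these data known. All 48 members are counted, and results of single members left out of the text are not reported here. Values per library are given for called members by lowest adjusted p (up to 8 each way), the 2 highest and 2 lowest estimates, motors, Hedgehog regulators and membrane GTPases; others are named by group. Not every count of 5 or fewer names its genes. A description of promoter motifs was planned and not made. Each SE was derived from the edgeR F statistic, as the absolute log2 fold change over the square root of F. It is therefore no separate measure from the p-value. Each SE covers the spread between libraries as well as counting error, while floors cover counting error only.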

Additional observations from a re-analysis of the deposited data

How the results depend on the processing

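The count of cilium genes called with cyclopamine was 4. It became 6 with only the 6 libraries of the comparison, 2 with relative log expression factors, 1 with a mean of at least 5 CPM and 0 with replicate 1 as the lone cyclopamine library, whose spread is then assumed like that of the others. It ran from 1 to 3 when single libraries were left out. For estradiol against DMSO and for estradiol against cyclopamine the count of 0 became 2 with DESeq2, and ran from 0 to 2 without single libraries. The 13 members with all estradiol libraries above all cyclopamine libraries became 6 with relative log expression factors. The calls between stages 40 and 47 ran from 30 to 37, those for any difference among stages from 37 to 43, and those over the 5 adjacent steps from 56 to 71. The cause of these shifts was not tested. A filter at 5 CPM moved the median of genes present in both fits by 0.11 log2 units for stage 47 against stage 40.

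The estimates that changed sign were uncalled ones. With a mean of at least 5 CPM, dync2h1 with estradiol came to 0.0385 and evc2 between stages 47 and 40 to 0.00296, and on the deposited normalized values dync2h1 came to 0.0356. With the lone cyclopamine library, kif7 came to 0.025 and ift81 between the drugs to 0.0787. Without single libraries, estimates with cyclopamine ran from -0.0769 to 0.098 for arl13b, from -0.0200 to 0.135 for evc and from -0.22 to 0.127 for kif7. With estradiol they ran from -0.139 to 0.131 for arl13b, from -0.0766 to 0.0598 for dync2h1, from -0.0215 to 0.365 for evc and from -0.166 to 0.262 for tulp3. For ift81 between the drugs the range was -0.194 to 0.0317, and for evc2 between the stages -0.238 to 0.0174.

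The replicate block changed 2 calls with cyclopamine, adding kif3a and dropping arl6, for a count of 4. It gave 0 for both estradiol comparisons, 37 between stages 40 and 47, 43 among stages and 66 over adjacent steps. Correlations were taken between libraries of different groups, on deviations from the group mean. In the drug table, 2 of 9 same-number pairs were over 0.1, beside 4 of 18 pairs with different numbers. In the time course this held for 2 of 45 and 13 of 90 pairs. Between cyclopamine and DMSO, same-number pairs had 0.213, 0.124 and 0.0308, and different-number pairs had -0.204 to 0.0903. Between estradiol and cyclopamine, same-number pairs had -0.314, 0.084 and -0.286, and different-number pairs had -0.386 to 0.514. The highest were estradiol 3 with cyclopamine 1 (0.514), estradiol 1 with cyclopamine 2 (0.38) and estradiol 2 with cyclopamine 3 (0.296). The main fit took all libraries as independent. With 3 libraries per group, these values cannot settle whether the numbers, or any other matching of libraries, pair the samples.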
